A study of Drosophila melanogaster with 2 samples.

Results

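The genes of Drosophila melanogaster that encode subunits of Mediator were examined for peaks of Su(var)2-HP2, a heterochromatin protein, at their start sites. They were chosen by name: every annotated protein-coding gene called MED with a number, plus ix, kto, skd, Cdk8 and CycC. This gave 30 genes of the 13968 protein-coding genes on the assembled chromosomes. MED21 was singled out by its measured value, the highest signal value of the series, so its rank and its distance from the other subunits are described and not tested. The chromatin came from whole embryos of 0 to 10 h of a transgenic line that stably expresses Su(var)2-HP2 fused to GFP at its C terminus, and was precipitated with an antibody against GFP. There is 1 group of 2 biological replicates, numbered 4 and 6. Both carry the fusion, and all cell types of the embryo are mixed. The labels do not say which promoter drives the fusion, or whether the untagged protein is still made.

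Mediator is the complex that carries signals from DNA-bound activators to RNA polymerase II at promoters. Its head and middle modules contact the polymerase, its tail receives activators, and a separable kinase module regulates the rest. Su(var)2-HP2 binds HP1, the protein that packs the DNA around centromeres and much of chromosome 4 into heterochromatin, where some active genes nevertheless lie. Of the 30 genes, 28 lie on chromosome arms. MED21 lies in the pericentromeric part of 3L and MED26 on chromosome 4.

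The stretches directly upstream of 7 start sites show what DNA lies beneath or beside the peaks. MED21 and MED26 are the heterochromatic members, and MED31, MED1 and MED27 are arm members with a peak. MED24 and MED10 are arm members with no start-site summit in any list. Sequence is from the RefSeq copy of Release 6 (dm6), read 5′ to 3′ on the strand of the gene and ending 1 base before the start site. Capitals mark matches on either strand to 1 of 8 short promoter motifs, which are named with the motif counts. The stretches are chr3L:25115947-25116146 on the minus strand for MED21, chr4:787615-787814 on the minus strand for MED26 and chr3R:4641839-4641962 on the plus strand for MED31. The others are chr3L:21634447-21634646 on the minus strand for MED1, chr3R:5654939-5655138 on the plus strand for MED27, chr3L:8191119-8191269 on the plus strand for MED24 and chr3L:16232039-16232083 on the plus strand for MED10. Stretches shorter than 200 bases stop at an exon of the neighbouring gene.
MED21: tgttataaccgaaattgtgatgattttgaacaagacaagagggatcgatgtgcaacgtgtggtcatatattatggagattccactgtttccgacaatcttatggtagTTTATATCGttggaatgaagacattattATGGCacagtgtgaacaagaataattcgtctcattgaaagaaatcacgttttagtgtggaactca
MED26: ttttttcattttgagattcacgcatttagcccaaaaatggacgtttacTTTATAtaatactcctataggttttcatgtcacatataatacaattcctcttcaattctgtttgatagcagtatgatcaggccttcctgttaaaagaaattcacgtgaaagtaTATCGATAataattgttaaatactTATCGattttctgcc
MED31: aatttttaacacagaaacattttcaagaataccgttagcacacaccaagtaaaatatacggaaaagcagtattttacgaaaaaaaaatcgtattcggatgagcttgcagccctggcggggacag
MED1: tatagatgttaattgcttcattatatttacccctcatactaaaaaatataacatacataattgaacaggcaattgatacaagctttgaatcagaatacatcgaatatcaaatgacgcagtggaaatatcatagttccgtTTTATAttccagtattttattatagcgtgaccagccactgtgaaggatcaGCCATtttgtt
MED27: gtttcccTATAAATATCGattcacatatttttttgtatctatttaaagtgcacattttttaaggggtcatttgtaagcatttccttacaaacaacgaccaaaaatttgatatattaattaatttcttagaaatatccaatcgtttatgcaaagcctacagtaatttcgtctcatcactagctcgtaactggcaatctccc
MED24: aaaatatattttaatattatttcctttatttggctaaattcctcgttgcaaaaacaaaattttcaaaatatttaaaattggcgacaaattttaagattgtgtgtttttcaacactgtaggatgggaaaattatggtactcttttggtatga
MED10: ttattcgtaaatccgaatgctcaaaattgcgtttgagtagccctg
The pooled summit falls on base 138 of the MED21 stretch, base 95 of the MED26 stretch, base 63 of the MED1 stretch and base 64 of the MED27 stretch. At MED31 it lies beyond the printed bases, in the neighbouring gene CG9775.

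The data are 4 peak lists: 1 per replicate, 1 pooled, and 1 list of 2006 peaks kept by the irreproducible discovery rate (IDR), a threshold on the agreement of replicates. By signal value, the IDR peaks are the top 2006 of the pooled list. The other lists hold 30000 peaks each. A gene was counted when the summit, the highest point of a peak, lay within 500 bp of 1 of its start sites. Signal values are the authors' scores. Each was scaled by the median over the top 2006 peaks of its own list, and this ratio, the relative signal, is 1 at that median. The lowest relative signal listed is 0.0861 in the pooled list, 0.0843 in replicate 6 and 0.11 in replicate 4. Read numbers are not in the files, so the depth behind each value is unknown.

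Of the 30 Mediator genes, 6 had an IDR summit at a start site, which is 20% against 8.84% of all protein-coding genes (1235 of 13968). They were MED21, MED26, MED31, MED8, MED1 and MED27. In the 2006 strongest peaks of replicate 6 the count was 7 of 30, against 8.74% of all genes, and MED17 was the addition. In those of replicate 4 the count was 6 of 30, with the same 6 genes as the IDR list, against 8.46%. MED21 lies among pericentromeric genes, 46.1% of which had an IDR summit, and MED26 among chromosome 4 genes, of which the share was 63.8%. On the arms, 4 of 28 Mediator genes had an IDR summit, 14.3% against 8.01% of arm genes. The members were chosen with these lists known, and several share a promoter with another gene, so the shares are given as counts without a test.

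Weaker summits were common. The pooled list had a start-site summit at 17 of 30 Mediator genes, 56.7% against 37.9% of all genes. The whole list of replicate 6 had 17 of 30, against 35.7%, and that of replicate 4 had 21 of 30, against 41%. Of the members, 13 had a summit in both replicate lists, 4 in that of replicate 6 only and 8 in that of replicate 4 only. MED10, MED15, MED18, MED23 and MED24 had no summit within 500 bp in any list. Of the 17 members with a pooled summit, 13 had a summit with a q-value under 0.05, so the weakest summits are uncertain calls. For the split by replicate, for absence from every list and for the q-value limit, the share of all genes is not given here. Those counts therefore describe the members only.

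**Figure D1:**
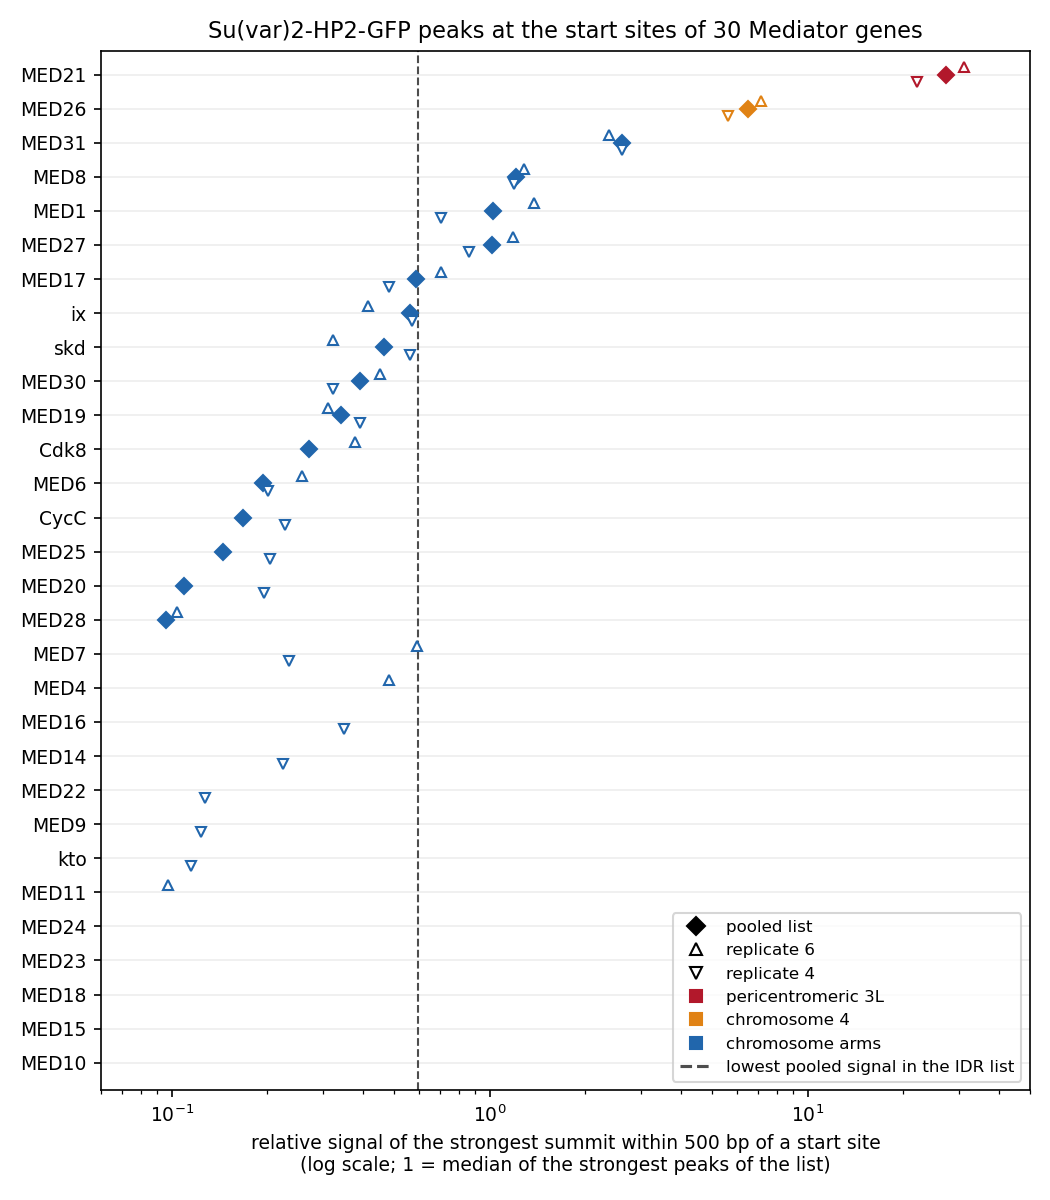
Relative signal of the strongest start-site summit of each of the 30 Mediator genes on a log scale, with the pooled list as diamonds and replicates 6 and 4 as triangles, coloured by part of the genome. The dashed line is the lowest pooled signal in the IDR list. MED21 (27.2 in the pooled list) and MED26 (6.52) lie above the arm members, of which MED31 (2.62) is highest.

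MED21 encodes a small subunit of the middle module, where it pairs with MED7 in the hinge of the complex. The gene (FBgn0040020) lies on 3L from 25114924 to 25115946 on the minus strand. Its signal value was 2792 in replicate 6, 2807 in replicate 4 and 5544 in the pooled list, at rank 1 of each list. Relative signal was 31.0 in replicate 6 and 22.2 in replicate 4, a mean of 26.6 ± 6.23 (SD, n = 2). The summits of both replicates were 9 bp apart, and the pooled summit at 25116009 was 63 bp upstream of the start site. No other gene starts within 500 bp of that summit.

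The peak at MED21 stood in a crowded stretch. The pooled interval that holds it runs over 6834 bp, from 25115204 to 25122037, with 7 summits. The called interval was narrower in each replicate, at 3245 bp with 5 summits in replicate 6 and 2617 bp with 4 summits in replicate 4. Along 3L the summits of the pooled interval had relative signals of 27.2, 0.454, 0.899, 0.238, 0.385, 16.7 and 1.26. The interval thus holds 2 high summits with lower ones between them.

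The second high summit is at UQCR-11 (FBgn0260008), a subunit gene of respiratory complex III that starts 4763 bp from MED21. UQCR-11 had a relative signal of 19.7 in replicate 6 and 13.1 in replicate 4, 16.4 ± 4.68 (SD, n = 2). Set1 (FBgn0040022), which encodes a methyltransferase for lysine 4 of histone H3, lies on the other side. Of its start sites, the nearest is 6668 bp away. The gene begins farther off, at 25107594, and its summit at 25108893 is 104 bp from 1 of its start sites. Set1 had 12.3 in replicate 6 and 7.94 in replicate 4, 10.1 ± 3.10 (SD, n = 2). MED21 was above both neighbours in each replicate, and all these genes were higher in replicate 6.

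Within 10 kb of the MED21 start site the pooled list holds 26 other summits, 7 of them IDR peaks, with a median relative signal of 0.290. MED21 took place 1 among the 27 of 36 pericentromeric 3L genes with an IDR summit, whose median pooled relative signal was 11.0. It also took place 1 among the 89 pericentromeric genes with an IDR summit on all chromosomes, whose median was 10.3. The 1095 arm genes with an IDR summit had a median of 1.02.

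MED26 encodes a subunit that in human cells links Mediator to elongation factors. The gene (FBgn0039923) lies on chromosome 4 from 778516 to 788978 on the minus strand and has 2 start sites, at 787614 and 788978. At the inner site relative signal was 7.12 in replicate 6 and 5.62 in replicate 4, 6.37 ± 1.06 (SD, n = 2), with the pooled summit 106 bp upstream. The outer site had its summit 421 bp downstream, with 5.74 in replicate 6 and 4.73 in replicate 4. Both start sites thus had a summit within 500 bp in both replicates, within 1 pooled interval of 1875 bp that holds 4 summits. Nearer the outer site lay only weaker summits. They were 222 bp downstream at 0.351 in the pooled list and 220 bp downstream at 1.04 in replicate 4. Among the 51 chromosome 4 genes with an IDR summit, MED26 took place 30, below their median of 9.10.

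The relative signal of MED21 was 4.35 times that of MED26 in replicate 6 and 3.95 times in replicate 4, a mean ratio of 4.15 ± 0.287 (SD, n = 2). Against MED31, the strongest arm subunit, MED21 was 13.1 times as high in replicate 6 and 8.51 times as high in replicate 4, with an SD of 3.24 between the replicates. The ratio of the means was 10.7. MED31 lies close to a rounded border, and with borders moved 0.5 Mb towards the arms MED8 is the strongest arm subunit and the ratio is 21.5. The order MED21, MED26, MED31 was the same in both replicates. MED21 and MED31 were picked by their values, so this order is described and was not tested.

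MED31 encodes a small, widely conserved subunit of the middle module. The gene (FBgn0037262) lies on 3R from 4641963 to 4643292 on the plus strand. Relative signal was 2.37 in replicate 6 and 2.60 in replicate 4, 2.49 ± 0.168 (SD, n = 2), and MED31 took place 136 among the 1095 arm genes. Of the 6 members with an IDR summit it was the only one that was lower in replicate 6. MED31 shares the summit: it lies 192 bp upstream of a start site that slx1 shares, and 67 bp downstream of the start of the divergent gene CG9775.

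MED8 encodes a head subunit and lies on 2R from 20325844 to 20326806 on the minus strand. Relative signal was 1.28 in replicate 6 and 1.19 in replicate 4, 1.23 ± 0.0623 (SD, n = 2). These are the strongest summits within 500 bp in each list and are not the same summit: that of replicate 6 is 227 bp upstream and that of replicate 4 is 353 bp upstream. Replicate 4 has another summit 108 bp upstream, at 1.13. The pooled summit is 205 bp upstream and is shared with the divergent gene CG8929, and another IDR summit, of relative signal 0.932, lies farther upstream.

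MED1 encodes a middle subunit that contacts nuclear receptors in mammals. The gene (FBgn0037109) lies on 3L from 21628325 to 21634446 on the minus strand. Relative signal was 1.38 in replicate 6, at rank 654, and 0.703 in replicate 4, at rank 1666, with a mean of 1.04 ± 0.479 (SD, n = 2). The replicates differed here more, relative to the mean, than at the other 5 genes. The summit is 138 bp upstream, and no other gene starts within 500 bp of it.

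MED27 encodes a subunit that in human Mediator lies between the head and the tail. The gene (FBgn0037359) lies on 3R from 5655139 to 5656336 on the plus strand. Relative signal was 1.19 in replicate 6 and 0.860 in replicate 4, 1.02 ± 0.232 (SD, n = 2), with a summit 137 bp upstream that the divergent gene elm shares. The values of MED8, MED1 and MED27 lie within 1 SD of MED1 of each other, so their order is not resolved. These 3 genes took places 440, 542 and 550 among the 1095 arm genes, near the median.

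**Figure D2:**
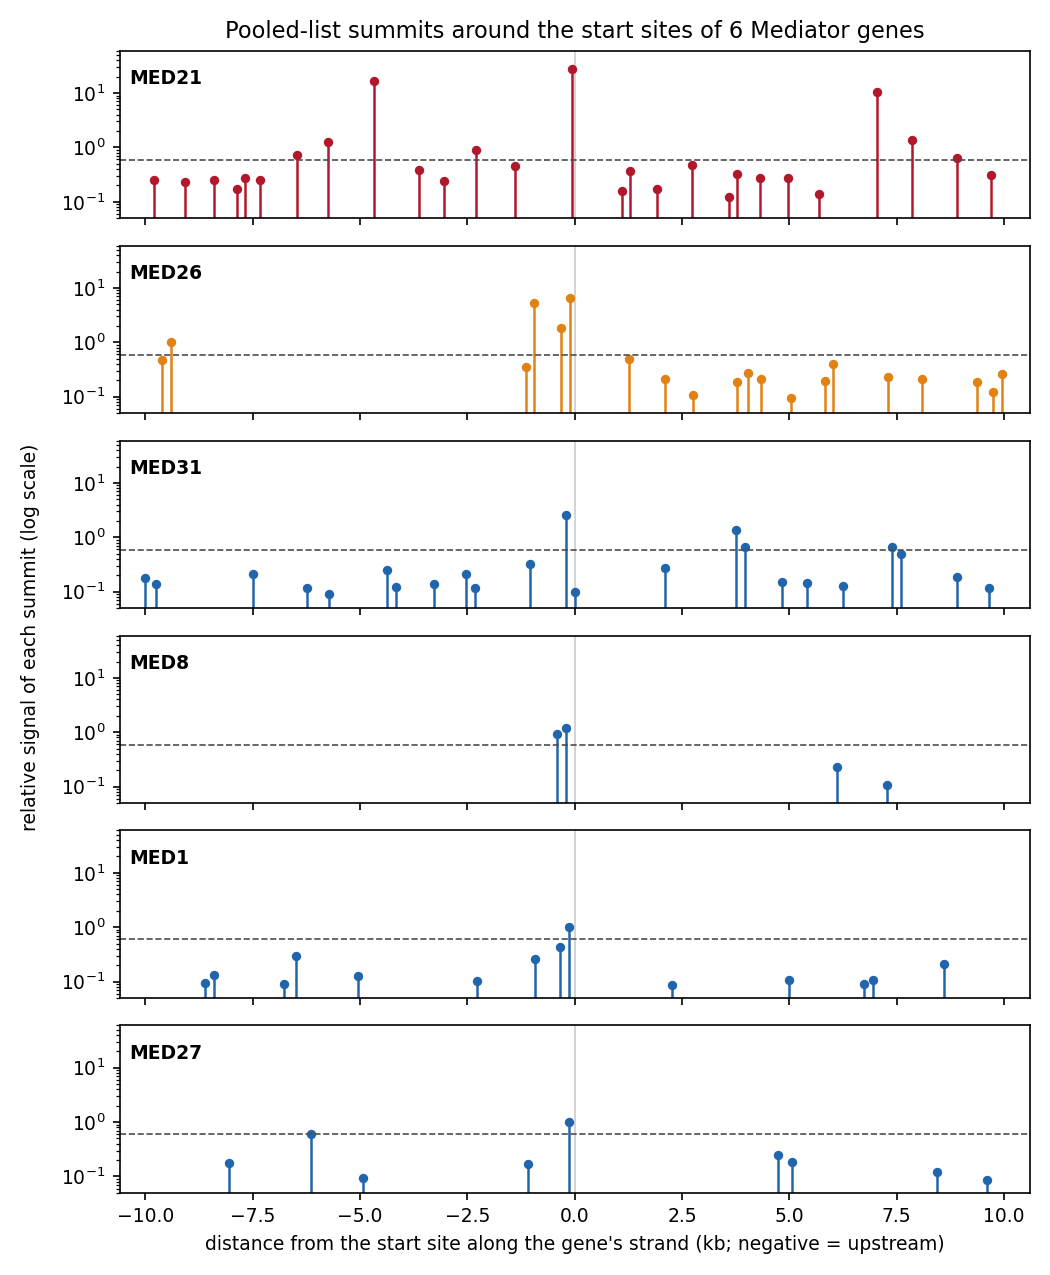
Relative signal (log scale) of each pooled-list summit within 10 kb of the start site of the 6 Mediator genes with an IDR summit, against distance in kb along the strand of the gene. The dashed line is the lowest signal in the IDR list. In each panel the highest summit lies just upstream of the start site, and MED21 alone has other summits at 16.7 and 10.4, those of UQCR-11 and Set1.

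The lowest pooled signal value in the IDR list is 120.9, a relative signal of 0.594. MED27, at 207.2, is the lowest member inside this limit, and MED17 and ix lie just outside it with 119.1 and 114.3. MED17 encodes the scaffold of the head module and had a relative signal of 0.705 in replicate 6 and 0.484 in replicate 4. ix encodes a tail subunit that in flies is needed for female development, and had 0.415 in replicate 6 and 0.571 in replicate 4. The ix summit is 351 bp upstream of ix and is shared with san. MED17 and ix are thus close below the limit, while no member lies close above it.

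By module, after yeast and human Mediator, the middle module had an IDR summit at 4 of 8 genes, the head at 1 of 8, the tail and backbone at 1 of 8 and the kinase module at 0 of 4, beside 8.84% of all genes. MED28 and MED30, which were not placed in a module, had none. The pooled list had a summit at 4 of 8 middle, 5 of 8 head, 3 of 8 tail and backbone and 3 of 4 kinase genes, and at both unplaced genes, beside 37.9% of all genes. MED21 and MED26, the members outside the arms, are both in the middle module.

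In the head module, MED17 was followed by MED19, a subunit that binds Hox proteins in flies, with 0.310 in replicate 6 and 0.391 in replicate 4. MED6, a conserved contact to the polymerase, had 0.257 in replicate 6 and 0.200 in replicate 4. Of the replicates, only replicate 4 listed MED20, at 0.196, and its pooled summit, at 0.109, is shared with Trf. MED22 was listed in replicate 4 only, at 0.127, and MED11 in replicate 6 only, at 0.0973. MED18, the partner of MED20, had no listed start-site summit, and its nearest pooled summit was 524 bp away. None of these genes had an IDR summit. The pooled values of MED19 (0.341), MED6 (0.194) and MED20 (0.109) lie below the IDR limit, which is a pooled value.

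In the middle module, MED7, the hinge partner of MED21, had no pooled summit nearer than 27250 bp. Its replicate lists gave a summit at 0.592 in replicate 6, at rank 2048, and at 0.235 in replicate 4, at rank 11024, a mean of 0.413 ± 0.253 (SD, n = 2). MED21 thus ranked far above its hinge partner in both replicates. MED4, a core middle subunit, was listed in replicate 6 only, at 0.482, and MED9 in replicate 4 only, at 0.124. MED10 had no start-site summit in any list, and its nearest pooled summit was 71158 bp away.

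In the tail and backbone, MED14, the backbone that joins the modules, was listed in replicate 4 only, at 0.224. MED16 was listed in replicate 4 only, at 0.348. Of the replicates, only replicate 4 listed MED25, at 0.204, and the pooled list had it at 0.145. MED15, the tail subunit that many activators bind in yeast, had its nearest pooled summit 570 bp away, and like MED18 fell just outside the distance. MED23 had its nearest pooled summit 34566 bp away and MED24 4382 bp away.

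In the kinase module, skd, the MED13 gene, which ties the kinase to the complex, had 0.322 in replicate 6 and 0.562 in replicate 4, with a summit shared with Pdss2. Cdk8, the kinase, was listed in replicate 6 only, at 0.376, with a pooled summit 27 bp upstream. For CycC, its cyclin, only replicate 4 of the replicates had a summit, at 0.227. The pooled summit of CycC, at 0.167, is shared with UQCR-C1. kto, the MED12 gene, was listed in replicate 4 only, at 0.115. None of the 4 genes had an IDR summit. Of the unplaced genes, MED30 had 0.451 in replicate 6 and 0.322 in replicate 4. MED28 had 0.104 in replicate 6, no summit in replicate 4 and 0.0962 in the pooled list.

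**Figure D3:**
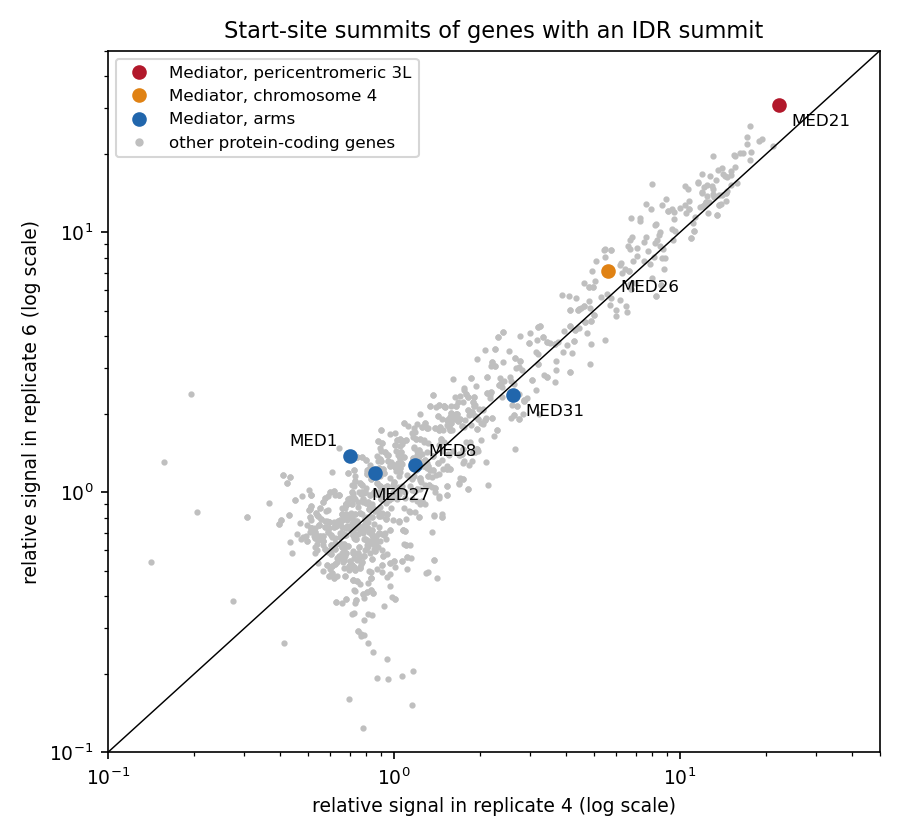
Relative signal in replicate 6 against replicate 4 (both log scales) of the strongest start-site summit of 1223 protein-coding genes with an IDR summit and a value in both replicates, with the 6 Mediator genes in colour. MED21 is the highest point on both axes, and 5 of the 6 Mediator genes were higher in replicate 6.

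The log2 difference of relative signal, replicate 6 minus replicate 4, had a median of 0.40 over the 6 IDR members and ran from -0.14 at MED31 to 0.97 at MED1. It was 0.48 at MED21, 0.34 at MED26, 0.47 at MED27 and 0.10 at MED8. Over all 1223 such genes the median was 0.10 with an SD of 0.54, and 59.2% were higher in replicate 6. The values of the 6 IDR members lie within 2 SD of this median. The 7 members listed in both replicates without an IDR summit had a median of 0.36 and ran from -0.80 at skd to 1.34 at MED7. The summits of both replicates were 55 bp apart in the median over the 6 members and 31 bp over all genes.

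The arm subunits with an IDR summit lay near the pericentromeric borders, apart from MED8. MED31 is 0.442 Mb from the border on 3R, MED1 1.37 Mb from that on 3L and MED27 1.46 Mb from that on 3R, while MED8 is 14.9 Mb away. The median distance was 1.41 Mb for these 4 genes and 14.0 Mb for the other 24 arm members, beside 11.6 Mb for all arm genes. Within 2 Mb of a border, 3 of 4 Mediator genes had an IDR summit, against 15.1% of arm genes there. Beyond 2 Mb it was 1 of 24, against 7.43%. skd, 1.97 Mb from the border on 3L, is the member within 2 Mb that had none. The limit of 2 Mb was chosen after the values were seen, and the borders are rounded.

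Genes of the same transcription machinery were set beside Mediator by lists made with earlier results known. An IDR start-site summit was found at 6 of 30 Mediator genes, 3 of 12 RNA polymerase II subunit genes, 6 of 31 general transcription factor genes and 3 of 17 elongation factor genes, which is 20%, 25%, 19.4% and 17.6% beside 8.84% of all genes. The pooled list gave 56.7% of Mediator, 58.3% of polymerase, 80.6% of general factor and 76.5% of elongation factor genes, beside 37.9% of all. All genes of the other 3 lists lie on arms. With its arm genes alone, the like comparison, Mediator had 14.3% in the IDR list and 53.6% in the pooled list. Both shares were below those of the other 3 lists. The counts are small and the differences were not tested.

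**Figure D4:**
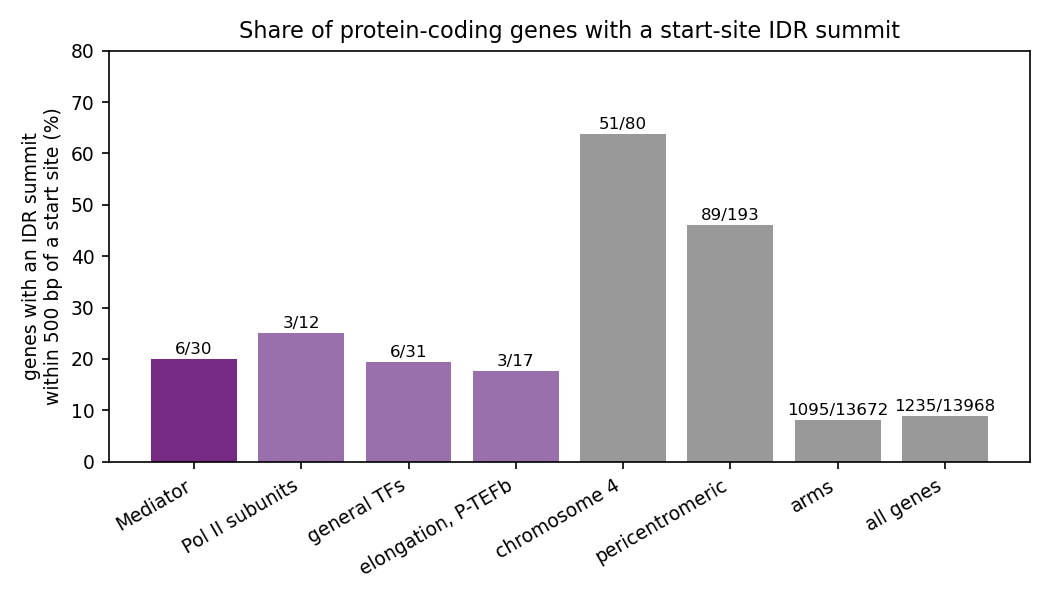
Percent of protein-coding genes whose start site has an IDR summit at 500 bp or less, with the counts above each bar. Mediator (6 of 30) stands beside lists of the transcription machinery and, in grey, genes of chromosome 4, of the pericentromeric parts, of the arms and all genes (1235 of 13968).

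The median mean relative signal of genes with an IDR summit was 1.86 over the 6 Mediator genes, 1.14 over the 4 on the arms, 0.977 over arm genes and 1.07 over all genes. MED31, at 2.49 ± 0.168, was exceeded on the arms by TfIIB, which recruits the polymerase to the promoter, at 7.42 ± 1.62 (SD, n = 2). Ssl1 of the repair and initiation factor TFIIH had 4.26 ± 0.159, and TH1, a subunit of the pausing factor NELF, had 2.98 ± 0.458 (SD, n = 2). TfIIB shares its summit with Bug22, Ssl1 with Chro and TH1 with mei-41. The highest polymerase subunit gene was Polr2H at 1.27 ± 0.360 (SD, n = 2), and Polr2A, the largest subunit, had no IDR summit. Among these lists the strongest arm values were thus outside Mediator, and MED21 was above all of them.

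The summits of Mediator genes lay upstream. All 6 IDR members had the summit upstream of the start site, against 92.2% of 1235 genes, and so did all 17 with a pooled summit, against 76.3% of 5299. The median distance to the start site was 137.5 bp for the 6 members and 145 bp for all genes with an IDR summit. A gene on the opposite strand started within 500 bp of the summit at 3 of 6 IDR members, against 57.9%, and at 12 of 17 pooled members, against 49.5%. MED31, MED8 and MED27 are these 3 IDR members, all on arms. Many pooled summits lie closer to the other gene than to the member. That of MED19 is 427 bp from MED19 and 12 bp from CG7430, and that of MED25 is 417 bp from MED25 and 18 bp from Hs6st. The same holds for MED31 (192 bp, against 67 bp from CG9775), skd (373 bp, against 108 bp from Pdss2), ix, MED20, CycC and MED28. At MED19, MED20, CycC and MED31 the summit lies inside the other gene. The pooled intervals of MED21 (6834 bp) and MED26 (1875 bp) were wider than those of the 4 arm members, which had a median of 299.5 bp, against a median of 372 bp over arm genes. Median widths were 2524 bp over pericentromeric genes and 2144 bp over chromosome 4 genes with an IDR summit. The 201 bp around the summit had a median GC content of 28.6% at the 6 members and 32.8% at all such genes, and a mean soft-masked (repeat) share of 21.6% against 24.4%.

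Motifs were searched on both strands in the 201 bp around the summits of the 6 members, beside 867 distinct IDR summits at start sites of all genes. The TATA box, TATAAA, was found at 5 of 6 members (all but MED8), against 43.5% of all summits. Within 50 bp of the summit it was found at 2 of 6, MED21 and MED26, against 24.9%. The core of the insulator protein BEAF-32, CGATA, was found at MED21, MED26 and MED27, against 38.3%. The DNA replication-related element DRE, TATCGATA, which contains that core, was found at MED26, against 7.50%. The Polycomb group factor motif Pho, GCCAT, was found at MED21, against 22.1%. Motif 1, GGTCACACT, the GAGA motif, GAGAG, the E-box, CAGCTG, and the motif of the early embryonic factor Zelda, CAGGTAG, were found at 0 of 6, against 3.0%, 16.3%, 7.84% and 0.577%. A match to so few letters is a description of the window and not of a bound factor.

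In the promoters of all 30 members, from 250 bp before to 50 bp after 1 start site per gene, motif 1 was found at 9 genes, against 6.04% of 13968 promoters. They are MED8, MED10, MED11, MED15, MED19, MED20, MED22, MED23 and MED24. Of these 9 genes, 1 had an IDR summit (MED8), beside 10.3% of the 843 protein-coding genes with motif 1, and 3 had a pooled summit, beside 62%. Of the other 21 members, 5 had an IDR summit, beside 8.75% of all genes without motif 1, and 14 had a pooled summit, beside 36.4%. These are small counts and were not tested. DRE was found in 7 member promoters, against 9.36%, the BEAF-32 core in 15, against 47.3%, the TATA box in 16, against 45.8%, and the Pho motif in 14, against 41.2%. GAGA was found in 6, against 29.7%, the E-box in 5, against 17.6%, and Zelda in 1, against 1.64%. The DRE and BEAF-32 core matches printed upstream of the inner MED26 start site are not in these promoter counts.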

How the data were processed

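ChIP-seq of Su(var)2-HP2-GFP was taken from 2 biological replicates of whole embryos of 0 to 10 h. The deposited files are 4 peak lists on dm6, per the labels. The aligner is not given in the sources used here, nor is the peak caller. Per the deposited file listing, peaks were called against a common control, which is not analysed here. The deposited signal value of each peak is a score on a scale that is not stated, used to rank peaks within a list, and the authors also give −log10 of a q-value and the summit offset. The 2006 IDR peaks share the highest q-value score, so q-values do not rank them.

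Summits were assigned to start sites of protein-coding genes of Ensembl release 115, and sequence was read from the RefSeq assembly, where 30 of 30 members had the same position. The highest summit within 500 bp was taken per list. Relative signal is the score over the median score of the top 2006 peaks of its list. Pericentromeric parts were 2L beyond 22 Mb, 3L beyond 23 Mb, X beyond 22 Mb, the first 5.4 Mb of 2R and the first 4.2 Mb of 3R. Of 61 symbols in the comparison lists, 60 were matched by symbol or synonym. Python 3.11.15 with numpy 2.4.6 and matplotlib 3.10.9 was used. Assignment was tested on simulated data, where 200 of 200 planted genes were recovered.

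The members and lists were chosen with earlier results of these data known. There is 1 group, so no test between groups was made, and values are given per replicate and as mean ± SD. The named genes are the members, protein-coding genes starting within 50 kb of MED21, up to 4 genes of each list with the highest relative signal, and genes that share a member's start site. Alternatives were other distances, peak sets, borders, scales and motif windows, and each replicate left out.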

Additional observations from a re-analysis of the deposited data

How the results depend on the processing

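Of 69 recomputed values, 55 moved by less than their limit and 14 moved more. The limits differed by value: a count of 21 against 17 members stayed inside, while a median of 1.92 against 1.86 did not. The tally is therefore not a uniform measure of stability. The count of Mediator genes with an IDR summit ran from 5 to 7. It was 5 when a summit was given only to the gene with the nearest start site, an alternative chosen after seeing the data that drops MED31. It was 7 within 1000 bp, which adds ix, against 9.96% of all genes. It was also 7 in replicate 6 alone, which adds MED17, against 8.74% of all genes. The pooled count of 17 became 13 within 250 bp or with a q-value under 0.05. For these pooled settings and for the nearest-start-site count of 5, the share of all genes is not given here. Those counts therefore describe the members only. The whole list of replicate 4 alone gave 21, against 41% of all genes. In the upper 1003 IDR peaks the 6 members were the same, and the share of all genes was 4.95%. Relative to the median of all peaks of a list, MED21 was 153 and the median of the 6 members 10.5, since weak peaks lower the divisor. On the scale used above, the median of the 6 members was 1.92 in the pooled list and 1.90 in replicate 4 alone. In replicate 6 alone it was 1.38, but over 7 members, since MED17 joins the set. With borders moved 0.5 Mb towards the arms, MED31 joins MED21, giving 2 pericentromeric members, and the ratio of MED21 to the strongest arm member, then MED8, is 21.5 (added after seeing the data). Around the summits, DRE matched 0 of 6 members within 50 bp (2.54% of all summits) and 2 within 200 bp (15.1%), and the TATA box 2 within 50 bp (24.9%). Within 200 bp GAGA matched 1 (37.7%), the E-box 1 (22.5%) and Pho 3 (44.3%). No paired analysis was possible because there is only 1 group. The SD rests on 2 replicates, and read depth is unknown. The lists stop at 30000 peaks, so a gene without a summit may have signal below the list limit.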
